A study of Rattus norvegicus with 20 samples.

Results

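The set described here is a peptide system of the hypothalamic arcuate nucleus and the enzymes that process its hormones: Pomc, Cartpt, Pcsk1, Pcsk2, Cpe and Pam. They were chosen by name, as the array probes other than controls that carry one of these 6 gene symbols. The rule found 6 probes, 1 a gene, printed in 15 spots (10 spots for Cartpt and 1 for each of the others), of 30367 probes for 25926 gene names in all. All 6 genes passed the filter on dim probes, which kept 17086 genes.

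Pomc encodes pro-opiomelanocortin, a large precursor that endoproteases cut at pairs of basic residues into adrenocorticotropic hormone (ACTH), melanocyte-stimulating hormones and beta-endorphin. In the arcuate nucleus, neurons that make it often also make the CART peptide, the product of Cartpt, and both peptides restrain feeding. Prohormone convertase 1/3, from Pcsk1, makes the early cuts that release ACTH. Prohormone convertase 2, from Pcsk2, cuts further to the smaller peptides. Carboxypeptidase E, from Cpe, then trims basic residues off the ends, and the peptidylglycine monooxygenase from Pam amidates the end of alpha-MSH and of many other peptides. Glucocorticoids repress Pomc in the pituitary, and ACTH raises their release from the adrenal gland.

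RNA came from the arcuate nucleus of 20 female Sprague-Dawley rats at postnatal day 15, 4 in each of 5 conditions, and was read on two-colour arrays. SNS rats had saline before birth, no spasms and saline after birth. BNS rats differed from these in the prenatal injection, which was betamethasone, a synthetic glucocorticoid, given to the dam 2 times at 0.4 mg/kg on gestational day 15. BYS, BYA and BYP rats had the same prenatal betamethasone and then spasms, a model of infantile spasms, brought on by N-methyl-D-aspartate (NMDA) at postnatal days 12, 13 and 15. After birth the BYS rats were treated with saline, the BYA rats with ACTH and the BYP rats with PMX53, an antagonist of the complement C5a receptor. The labels place these treatments on days 13, 14 and 15, whereas the methods describe courses that began on day 12, after the first spasms. In the methods ACTH ended on day 14, and PMX53 and saline ran to day 15. The legend of the paper's design figure ends PMX53 on day 14. No condition had spasms or either drug without betamethasone. The ACTH that BYA rats were given is itself a product of Pomc, so the comparison of BYA with BYS asks whether the precursor and its enzymes differed after the hormone was supplied from outside.

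The probe for Pomc reads the end of the coding sequence, in the part that encodes beta-endorphin, and those for Pcsk2 and Pam are printed beside it because these genes held the differences nearest the threshold of the test. On the rat genome build rn4 the probes lie at chr6:26937625-26937684 on the plus strand for Pomc, at chr3:132255540-132255599 on the plus strand for Pcsk2 and at chr9:96977460-96977519 on the plus strand for Pam. Capitals in the Pomc probe mark a stop codon. The last 4 bases of that probe, after the stop codon, are left out.
Pomc probe: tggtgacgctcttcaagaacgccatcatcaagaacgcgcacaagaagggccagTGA
Pcsk2 probe: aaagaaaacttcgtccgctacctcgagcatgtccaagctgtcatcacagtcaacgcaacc
Pam probe: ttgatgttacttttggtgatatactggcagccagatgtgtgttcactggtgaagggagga

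The probes for Cartpt (chr2:30889869-30889928, minus strand), Pcsk1 (chr2:1969912-1969971, plus strand) and Cpe (chr16:26750109-26750168, plus strand) complete the set. A probe of this kind reads its stretch of the transcript only, and gives no measure of cleavage, of peptide or of enzyme activity.

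The 250 bases before the transcription start of Pomc, Cartpt and Cpe are shown because Pomc and Cartpt are the precursors and Cpe is the gene whose level differed among conditions. They come from RefSeq on build GRCr8, where 5 of the 6 genes matched by symbol and Pcsk1 did not. Pomc lies at chr6:32659103-32659352 on the plus strand, Cartpt at chr2:32991236-32991485 on the minus strand and Cpe at chr16:29796457-29796706 on the plus strand. In capitals are matches to 5 short motifs, searched on both strands: the TATA box (TATAAA), the core of the cAMP response element (GACGTC), its half-site (TGACG, which overlaps the core), the core of the negative glucocorticoid response element known from pituitary work on Pomc (CGTCCA) and a glucocorticoid half-site (TGTTCT).
Pomc promoter: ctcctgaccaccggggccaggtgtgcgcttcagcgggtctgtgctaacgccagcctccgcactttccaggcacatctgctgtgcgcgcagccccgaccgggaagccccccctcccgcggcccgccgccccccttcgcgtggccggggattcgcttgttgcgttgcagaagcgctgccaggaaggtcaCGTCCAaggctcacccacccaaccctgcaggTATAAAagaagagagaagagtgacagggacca
Cartpt promoter: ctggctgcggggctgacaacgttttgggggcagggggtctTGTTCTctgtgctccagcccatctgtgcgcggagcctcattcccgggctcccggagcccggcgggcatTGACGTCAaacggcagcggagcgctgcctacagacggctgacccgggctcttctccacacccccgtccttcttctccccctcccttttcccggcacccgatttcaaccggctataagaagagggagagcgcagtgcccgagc
Cpe promoter: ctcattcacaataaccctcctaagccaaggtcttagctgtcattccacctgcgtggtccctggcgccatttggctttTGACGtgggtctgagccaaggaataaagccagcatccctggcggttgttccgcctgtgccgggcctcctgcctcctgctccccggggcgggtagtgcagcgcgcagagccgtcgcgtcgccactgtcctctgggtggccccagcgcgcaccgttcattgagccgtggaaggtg

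In the Pomc stretch the capitals are CGTCCA at bases -63 to -58 and TATAAA at -32 to -27, counted back from the start. In Cartpt they are TGTTCT at -210 to -205 and the cAMP response element at -142 to -135. Cpe held 1 match, TGACG at -173 to -169. Among 33469 promoters of the same length, 4.99% held CGTCCA, 12.9% TATAAA, 3.85% GACGTC, 18.2% TGACG and 17.5% TGTTCT. A match describes the letters only.

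All 6 probes were well above background in 20 of 20 samples and none was saturated. The tissue label was checked on arcuate genes: Agrp, Npy, Ghrh, Kiss1, Tac3, Th, Sst, Gal, Trh and Tbx3 were above background in all 20 samples, whereas Prlr was in 13, Slc6a3 in 12, Nr5a2 in 10 and Esr1 in 3. Of the lateral hypothalamus, Pmch, Pdyn and Nptx2 were also above background in all 20, Hcrt in 18 and Lhx9 in 2. Of the ventromedial hypothalamus, Nr5a1, Fezf1 and Adcyap1 were in all 20 and Sox14 in 14. The check therefore does not show that the signal came from arcuate cells alone. The pituitary also makes Pomc in quantity, and of its markers Prl and Pax7 were above background in 0 samples, Gh1 in 1 and Tshb in 2, though Lhb, Pitx1 and Tbx19 were in all 20. The summed signal of the 5 measured of 12 pituitary markers ranged from 6305 to 7460 in SNS and from 4523 to 7274 over the other conditions. Median signal over background was lower in SNS (6.94) and BYA (7.42) than in BYP (9.06), BNS and BYS (both 16). No slide held samples of more than 1 condition, and BYA replicate 3 sat apart from the other BYA samples, so slide and condition cannot be told apart. For BYA replicate 3 the dye in its label and the order in the raw data name do not match, so its channel is not certain and the values of the 6 genes in BYA are also given without it. Nothing in the sources says whether rats of a condition shared a litter, so p-values measure only the spread between these samples.

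Among the 6 genes, Cpe alone differed among the 5 conditions by the limma F-test (adjusted p = 0.0217), which called 12.1% of all genes. Cpe was about 2-fold higher in each of the 4 betamethasone conditions than in SNS, with log2 differences from 1.01 to 1.04. Pomc and Cartpt did not pass the test in any comparison. With ACTH, the interval of each reached a rise of 1.66-fold. Pcsk2 was called higher in BYA than in SNS by limma, as were 11.6% of all genes, but not by the F-test (adjusted p = 0.131). That call was lost without BYA replicate 2 or 4. Pcsk1 and Pam did not pass the test. Pam in BNS lay below SNS in every sample, as did 16.9% of all genes.

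**Figure D1:**
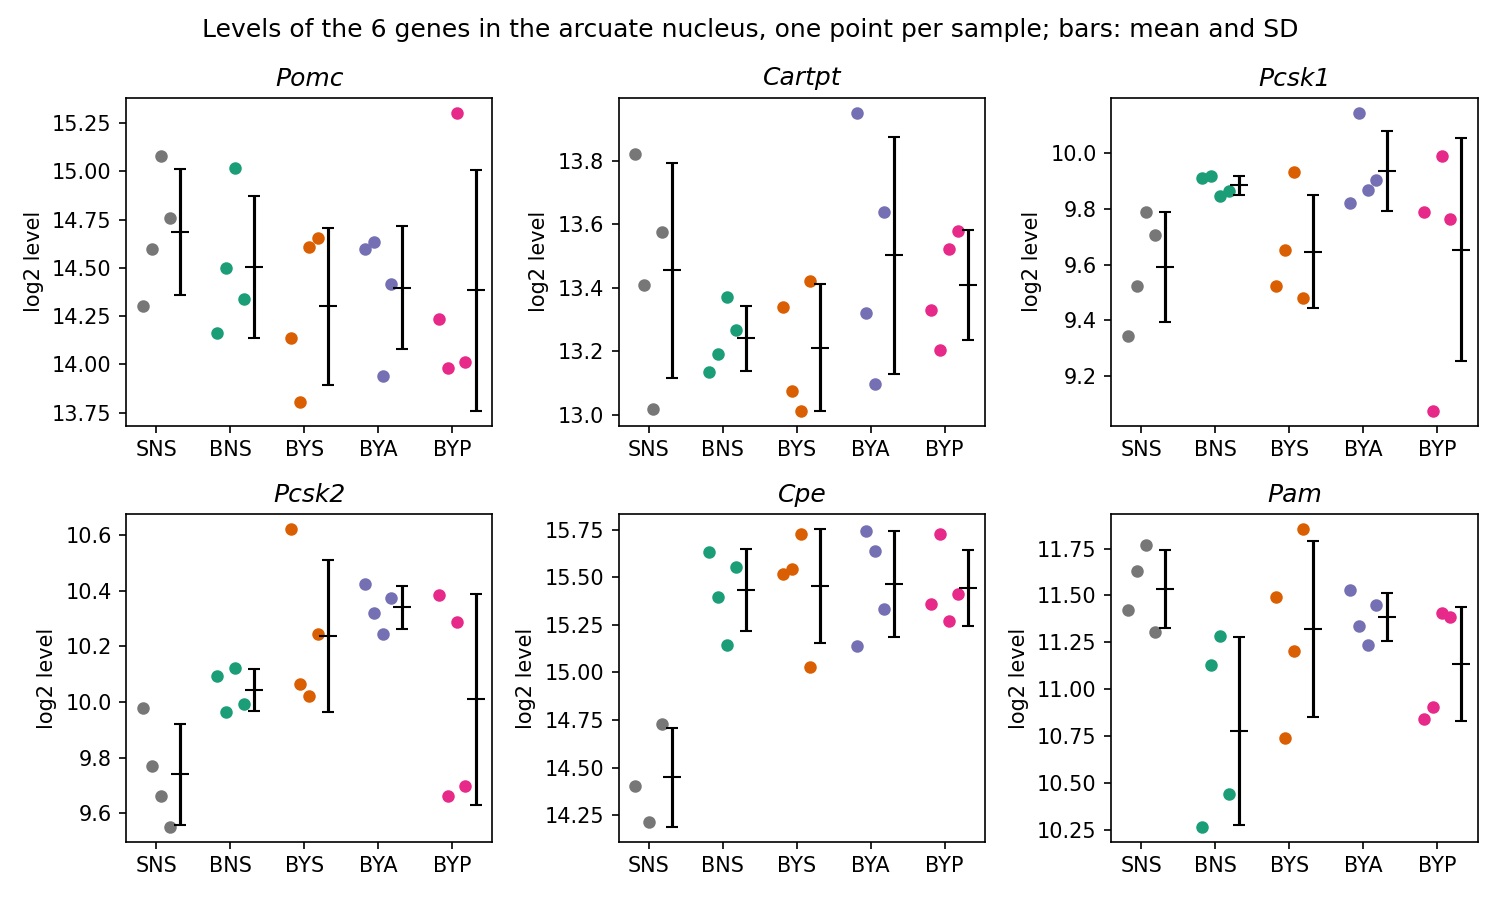
Log2 level of each of the 6 genes (vertical axes) in the 5 conditions (horizontal axes), with 1 point a sample and a bar for the mean and SD. Cpe in SNS, at 14.21 to 14.73, lies below every sample of the other conditions, whereas the points for Pomc overlap across all 5.

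Pomc was among the more variable genes between rats of 1 condition. A level here is the log2 of the background-corrected, quantile-normalized signal, and it is set against the same gene in other samples only. In SNS, replicates 1 to 4 had Pomc levels of 14.30, 14.60, 15.08 and 14.76. In BNS they were 14.16, 14.50, 15.02 and 14.34, and in BYS 14.13, 13.81, 14.61 and 14.65. The samples of SNS, BNS and BYS overlapped. In BYA the levels were 14.60, 14.63, 13.94 and 14.41, and in BYP 14.23, 13.98, 15.30 and 14.01. The highest level of all 20 was a BYP sample, and all 4 BYA samples lay inside the range of BYS.

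The condition means of Pomc ran in the order SNS (14.68 ± 0.325, SD, n = 4), BNS (14.50 ± 0.368), BYA (14.40 ± 0.319), BYP (14.38 ± 0.623) and BYS (14.30 ± 0.404), and no neighbours in that order differed beyond their spread. The pooled SD within conditions, 0.423 on the log2 scale, was at the 95.3rd percentile of all genes, whose median was 0.199. The range of the condition means, 0.384, lay at the 46.5th percentile. In bulk tissue, fewer Pomc neurons in a sample and less Pomc RNA per neuron cannot be told apart.

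Pomc was not called in any comparison. After prenatal betamethasone (BNS minus SNS) the log2 difference was -0.18 (SE 0.333, adjusted p = 0.74), and after spasms (BYS minus BNS) it was -0.20 (SE 0.333, adjusted p = 0.9998). With ACTH (BYA minus BYS) it was 0.06 (SE 0.320, adjusted p = 0.9998), with a 95% interval from 0.656-fold to 1.66-fold. With PMX53 (BYP minus BYS) it was 0.08, with an interval from -0.62 to 0.78. Without BYA replicate 3, the lowest BYA sample, the ACTH difference in Pomc was 0.28 (adjusted p = 0.99). With this spread, 4 samples a condition do not show whether Pomc responded to the supplied ACTH.

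Cartpt, read by 10 spots, was not called in any comparison either. The log2 levels of the SNS samples ran from 13.02 to 13.82, those of BNS from 13.14 to 13.37 and those of BYS from 13.01 to 13.42. In BYA they reached from 13.10 up to 13.95, and in BYP from 13.20 up to 13.58. All 5 ranges overlapped. Within a sample, the 10 spots had a median SD of 0.249, against 0.222 over the 1256 probes printed 10 times. The mean was highest in BYA (13.50 ± 0.374, SD, n = 4) and SNS (13.45 ± 0.339), then BYP (13.41 ± 0.173), BNS (13.24 ± 0.102) and BYS (13.21 ± 0.199), and no neighbours differed beyond their spread. The difference of BYA from BYS was 0.27 (SE 0.221, 95% interval -0.20 to 0.73), and 0.44 without BYA replicate 3 (adjusted p = 0.90). The range of its condition means, 0.290, was at the 28.2nd percentile of all genes.

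**Figure D2:**
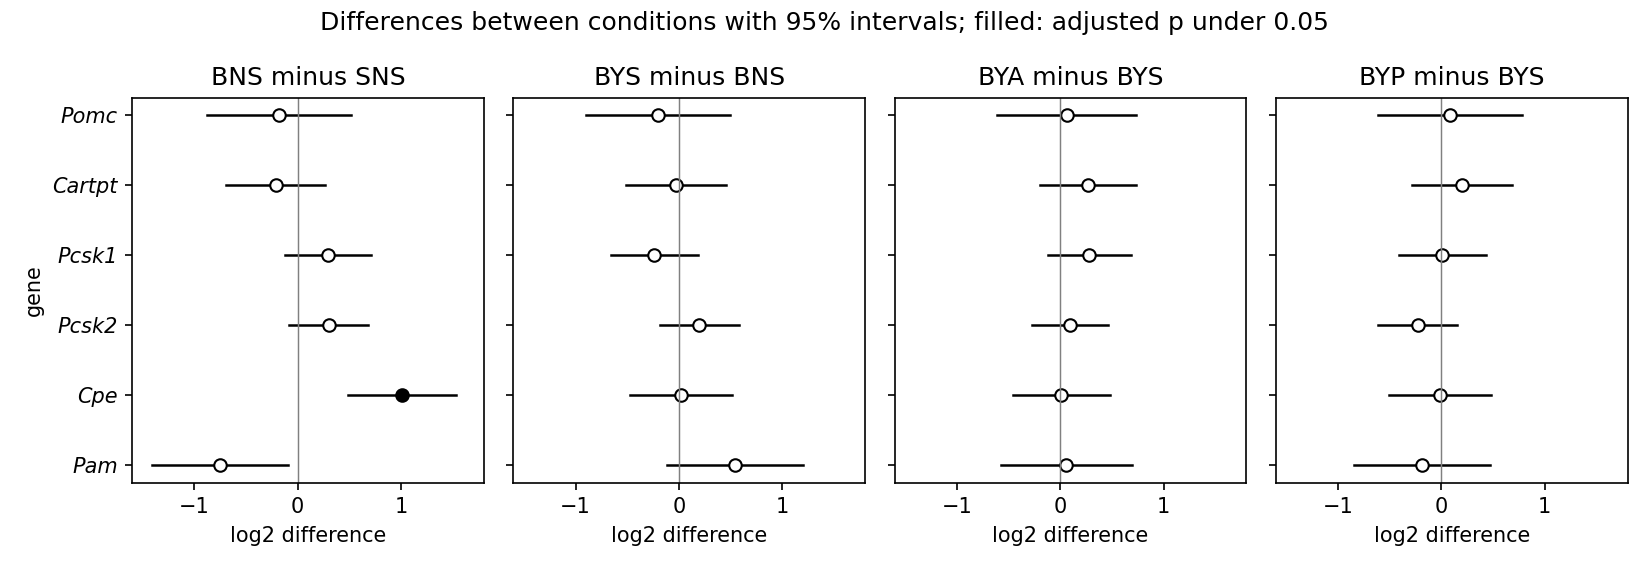
Log2 difference (horizontal axes) of each gene (vertical axis) for 4 comparisons, with the 95% interval as a line. The 1 filled point, for Cpe in BNS minus SNS at 1.01, marks an adjusted p under 0.05, and the other 23 points are open.

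Pcsk1, the convertase that releases ACTH from its precursor, lay higher in BNS than in SNS in every sample but did not pass the test. Its levels ran from 9.35 to 9.79 in SNS and from 9.85 to 9.92 in BNS, and over all genes 16.1% likewise had every BNS sample above every SNS sample. The log2 difference was 0.29, with an adjusted p of 0.32 by limma. BYS (9.48 to 9.93), BYA (9.82 to 10.15) and BYP (9.08 to 9.99) overlapped each other. Every BYA sample lay above every SNS sample, as for 14.5% of all genes, with a difference of 0.34 (adjusted p = 0.22). The order of the means was BYA (9.94 ± 0.144), BNS (9.89 ± 0.0348), BYS and BYP (9.65 ± 0.204 and 9.65 ± 0.399) and SNS (9.59 ± 0.198, SD, n = 4 each), with no neighbours apart beyond their spread. BYA minus BYS was 0.28, and 0.32 without BYA replicate 3.

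Pcsk2, the convertase of the later cuts, was highest in BYA. In SNS its levels in replicates 1 to 4 were 9.98, 9.77, 9.66 and 9.55. In BNS they were 10.09, 9.96, 10.12 and 9.99, and in BYS 10.62, 10.06, 10.02 and 10.25. The lowest BNS sample fell just inside the range of SNS, whereas every BYS sample lay above it. In BYA they were 10.43, 10.32, 10.24 and 10.37, and in BYP 10.39, 9.66, 10.29 and 9.70. All 4 BYA samples lay above all SNS and BNS samples, and the BYP samples fell into a higher and a lower pair.

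Only BYA minus SNS passed the limma test for Pcsk2, with a log2 difference of 0.60 (SE 0.175, 95% interval 0.23 to 0.96, adjusted p = 0.0237). In that comparison 19.4% of all genes were called, those called higher made up 11.6% of all genes, and 14.5% had every BYA sample above every SNS sample. Against SNS, BYS differed by 0.50 (adjusted p = 0.0758), and 14% of all genes had every BYS sample above every SNS sample. The means ordered as BYA (10.34 ± 0.0779, SD, n = 4), BYS (10.24 ± 0.273), BNS (10.04 ± 0.0766), BYP (10.01 ± 0.380) and SNS (9.74 ± 0.183), with overlap between all neighbours. Between BYA and BYS the difference was 0.10 (0.185 without BYA replicate 3), and between BYA and BNS it was 0.29, where every BYA sample was higher, as for 4.68% of all genes. The call in BYA was lost without BYA replicate 2 (adjusted p = 0.0565) or replicate 4 (adjusted p = 0.0704), but held without replicate 3 (0.68, adjusted p = 0.0153). It was also lost under 4 other scalings or signal columns, with log2 differences from 0.22 to 0.62.

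Cpe, the carboxypeptidase that trims the cut ends, held the 1 difference that ran through all betamethasone conditions. In SNS its levels in replicates 2 to 4 were 14.40, 14.21 and 14.73, since the spot of replicate 1 was marked as an outlier and left out. In BNS they were 15.63, 15.40, 15.15 and 15.55, and in BYS 15.52, 15.54, 15.73 and 15.03. Every sample of both lay above all 3 SNS samples. In BYA they were 15.14, 15.74, 15.64 and 15.33, and in BYP 15.36, 15.73, 15.27 and 15.41. The 16 betamethasone samples overlapped one another and stood above SNS without exception.

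The log2 difference of Cpe from SNS was 1.01 in BNS (2.02-fold, SE 0.249, adjusted p = 0.0114), 1.03 in BYS (adjusted p = 0.0103), 1.04 in BYA (2.06-fold, adjusted p = 0.00616) and 1.02 in BYP (adjusted p = 0.0106). These 4 comparisons share the SNS samples and are not independent of each other. The background was high: 15.2% of all genes were called in BNS minus SNS, 13.9% in BYS, 19.4% in BYA and 15.5% in BYP. Genes called higher made up 9.89% in BNS, 9.19% in BYS, 11.6% in BYA and 10.2% in BYP. Every sample lay above every SNS sample for 16.1% of genes in BNS and 14.5% in BYA, and for 14% in both BYS and BYP. The range of the condition means of Cpe, 1.02, was at the 95.1st percentile of all genes, whose median was 0.404. Between the betamethasone conditions the differences were 0.02 (BYS minus BNS), 0.01 (BYA minus BYS) and -0.01 (BYP minus BYS), all in groups that overlapped. Without BYA replicate 3, BYA minus SNS was 0.95 (adjusted p = 0.0151) and BYA minus BYS turned to -0.08.

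The mean level of Cpe was 14.45 ± 0.260 in SNS (SD, n = 3) and 15.46 ± 0.277 in BYA (n = 4), the 2 conditions with the lowest signal over background, against 15.43 ± 0.215 in BNS, 15.45 ± 0.299 in BYS and 15.44 ± 0.200 in BYP. With the outlier spot of SNS replicate 1 kept, BNS minus SNS was 0.95 (adjusted p = 0.0109). The difference stayed positive in all 17 alternatives, from 0.50 to 1.04 for BNS, but the call was lost in 4: with every channel scaled to the same median (0.50, adjusted p = 0.59), scaled on neuronal genes (0.92, adjusted p = 0.0706), and on the processed signals after quantile normalization (0.71, adjusted p = 0.0842) or 75th percentile scaling (0.59, adjusted p = 0.14). The F-test call was also lost without SNS replicate 2 (adjusted p = 0.0931) or 3 (adjusted p = 0.0805). The summed signal of 5 microglial markers was 11718 to 12470 in SNS and 7839 to 11440 elsewhere. Of these 5, the F-test called 1 (Cx3cr1), against 12.1% of all genes. Itgam went the other way, with a mean of 8.18 in SNS and 8.90 in BYP. For the 2 measured of 6 choroid plexus markers the sum was 3304 to 6878 in SNS and 1697 to 3457 elsewhere. Those ranges overlapped, and the F-test called 0 of the 2. The part of other cells in the result was not tested.

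**Figure D3:**
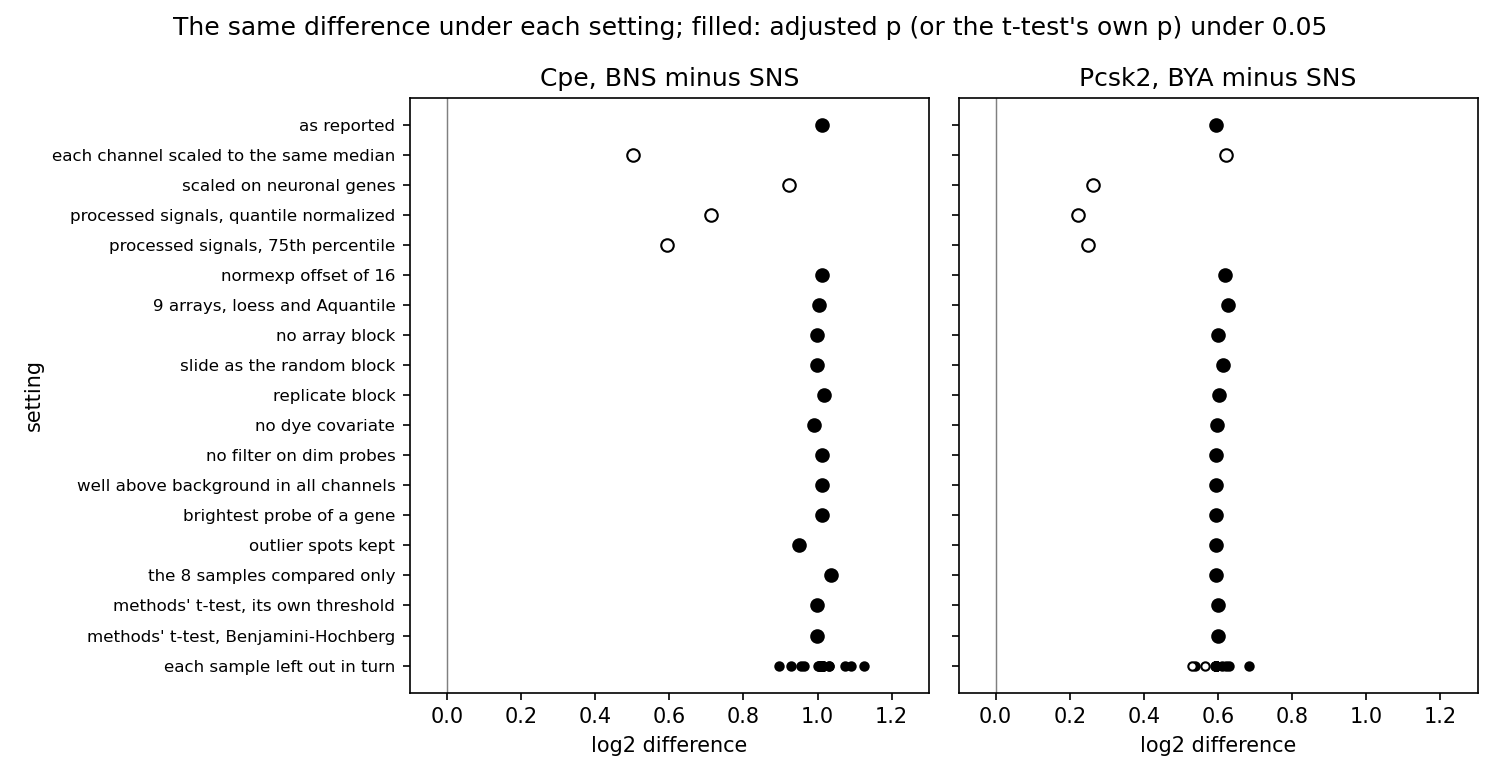
Log2 difference (horizontal axes) of Cpe in BNS minus SNS and of Pcsk2 in BYA minus SNS under each processing setting (vertical axis), with the range over leaving out 1 sample at a time. Filled points passed an adjusted p of 0.05, or an unadjusted p for the methods' t-test at its own threshold. Over the settings the values for Cpe stay between 0.50 and 1.04 and lose the call in the 4 named in the text. With 1 sample left out they run from 0.895 to 1.125.

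Pam, whose enzyme amidates finished peptides, was lowest in BNS. Its levels in replicates 1 to 4 were 11.42, 11.63, 11.77 and 11.31 in SNS and 10.27, 11.13, 11.28 and 10.44 in BNS. The highest BNS sample lay just below the lowest SNS sample, a separation in this direction that 16.9% of all genes shared. Levels ran from 10.74 to 11.85 in BYS, from 11.24 to 11.53 in BYA and from 10.84 to 11.41 in BYP, and overlapped those of SNS. The log2 difference of BNS from SNS was -0.75 (SE 0.315, 95% interval -1.41 to -0.09), which did not pass after adjustment over all genes (adjusted p = 0.11). With the samples taken as independent, without the array as a block, it passed (adjusted p = 0.0234). BYS minus BNS was 0.54 and BYA minus BYS 0.06 (0.127 without BYA replicate 3), neither called. The means ordered as SNS (11.53 ± 0.208), BYA (11.39 ± 0.128), BYS (11.32 ± 0.469), BYP (11.14 ± 0.302) and BNS (10.78 ± 0.50), and its pooled SD of 0.352 was at the 90.0th percentile of all genes.

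Within the betamethasone conditions 0 of the 6 genes were called. The percentages of all genes called by limma there were 0 for BYS minus BNS, 0 for BYA minus BYS, 0.00585 for BYP minus BYS, 0 for BYP minus BYA, 0.00585 for BYA minus BNS and 0.0878 for BYP minus BNS. At an unadjusted p under 0.05 the first 3 comparisons held 554, 741 and 663 genes, among them 0 of the 6. After Benjamini-Hochberg adjustment the unequal variance test of the methods, applied per gene, called 0 genes in each of these 3.

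A difference between 2 genes within a sample does not move when its channel is multiplied by a constant, and the balance of precursors and of convertases was set across conditions. The log2 level of Pomc minus that of Cartpt changed by 0.03 with betamethasone, -0.17 with spasms, -0.19 with ACTH and -0.11 with PMX53. Pcsk1 minus Pcsk2 changed by -0.01, -0.43, 0.19 and 0.24 in the same comparisons. Without BYA replicate 3 the changes with ACTH were -0.144 and 0.151. By 8 two-sided exact permutation tests, each over 70 assignments of samples with a smallest possible p of 0.0286, the adjusted p ran from 0.78 to 1. The value with the lowest p was Pcsk1 minus Pcsk2 after spasms (-0.43, exact permutation p = 0.14, n = 4 in each condition).

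Other enzymes that cut, trim or degrade peptides included several called higher in the betamethasone conditions, which sat on other slides than SNS. Of 16 such genes 14 were measured (Cpm and Cpn1 were not kept). By limma 4 were higher in BNS than in SNS and 5 in each of BYS, BYA and BYP, while 0 were lower. Pcsk7 and Cpd are in each of these counts and in that of the F-test. Neither was above background in every SNS sample, so both passed the filter through betamethasone conditions, where they were high. The list was also chosen with earlier results of these data known, so its counts do not test it against all genes. Over all genes 9.89% were called higher in BNS, 9.19% in BYS, 11.6% in BYA and 10.2% in BYP, and 4.72% to 7.73% lower. By the F-test 5 of the 14 were called (12.1% over all genes): Ctsl, Pcsk7, Furin, Cpd and Pcsk5. Without BYA replicate 3, 6 were called in BYA. The list's median difference from SNS was -0.06 in BNS, -0.02 in BYS, 0.03 in BYA and -0.01 in BYP, against -0.04, -0.03, -0.04 and -0.04 over all genes.

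Ctsl encodes cathepsin L, a cysteine protease of lysosomes that also cuts prohormones in secretory granules, and had the greatest differences of the list. Its log2 level in SNS was 12.19 ± 0.235 (SD, n = 4), and it was higher by 1.74 in BNS, 1.72 in BYS, 1.58 in BYA and 1.49 in BYP, which is 2.81-fold to 3.35-fold, with adjusted p from 6.64e-06 to 3.58e-05. Pcsk7, a convertase of the secretory pathway of most cells, was called higher in all 4 conditions, but its size is uncertain. It was well above background in only 1 of 4 SNS samples and 2 of 4 BYA samples, so it passed the filter through the conditions where it was high, and its fitted log2 difference ran from 0.70 to 2.77 over the alternatives. Furin, which cleaves proproteins in the trans-Golgi network, was higher by 0.53 to 0.79, a call lost in BYS without BYS replicate 1 (adjusted p = 0.0505) or 3 (adjusted p = 0.0515). Cpd, a carboxypeptidase of the same compartment that was above background in 3 of 4 SNS samples, was higher by 0.59 to 0.85. Pcsk5 was higher in BYS, BYA and BYP (0.99 to 1.06) and differed by 0.54 in BNS (adjusted p = 0.18). Under median scaling, scaling on neuronal genes and both processed signal settings, 1 to 3 of the 14 genes were called in either direction in each comparison, except for 6 in BYA with neuronal scaling (Ctsl, Pcsk4, Pcsk5, Pcsk7, Prep and Qpct).

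**Figure D4:**
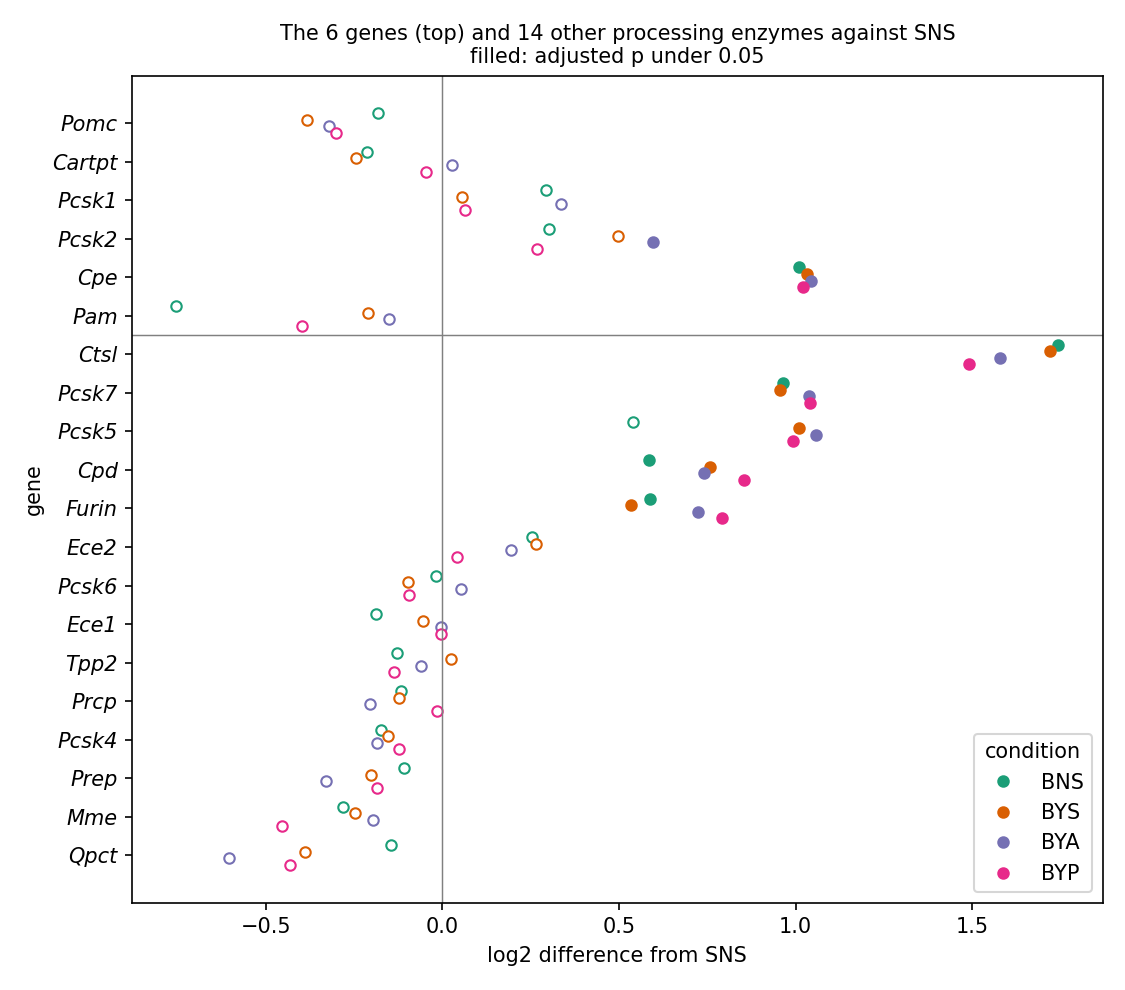
Log2 difference from SNS (horizontal axes) in BNS, BYS, BYA and BYP for the 6 genes and 14 other processing enzymes (vertical axis). Ctsl stands furthest to the right, at 1.49 to 1.74, and Cpe lies at 1.01 to 1.04 in all 4 conditions.

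Of 16 measured genes of granule release, Vamp2, a SNARE protein of vesicles, was called higher in all 4 betamethasone conditions by 1.21 to 1.51. It was the 1 gene of its list called by the F-test, where 12.1% of all genes were. SNS replicate 2 lay low (10.92, against 12.37 to 12.90 in the other SNS samples), and BYP replicate 4 (12.62) fell inside the SNS range. Of 17 alternatives, 6 lost the call of Vamp2 in BNS, 5 in BYS, 3 in BYA and 7 in BYP. By limma 2 of the 16 were called in BNS, 1 in BYS, 3 in BYA and 3 in BYP, where the shares over all genes were 15.2%, 13.9%, 19.4% and 15.5%. Rab27b, which docks granules, was higher in BYA and BYP (both 0.63), and Stx1a, a SNARE protein of the plasma membrane with 3 SNS samples left in the fit, in BYP (1.08). Syt7 was not kept. Cadps2, a priming factor, was lower in BYA (-0.80), a call lost in 8 of 20 removals of a single sample. The calcium sensor Syt9 was called lower in BNS (-0.46), but was above background in only 2 of 4 SNS and 3 of 4 BNS samples. Among 7 granins and cargo proteins, Nucb2, the precursor of nesfatin, was higher in BNS (0.96) and BYP (0.71), the latter lost in 7 of 20 removals. Of 7 measured inhibitors and helpers, the proton pump subunit Atp6v0a1, with 2 SNS samples left in the fit, was higher in BYA (0.46) and BYP (0.59), signs that turned in BYA on neuronal scaling and processed signals with quantile normalization and in BYP on median scaling. The call in BYA was lost in 12 of 20 removals, and without SNS replicate 3 the difference was 0.297 (limma adjusted p = 0.229). Scg5, the chaperone of convertase 2, was lower in BYP (-0.48), lost in 10 of 20 removals. None of the granins, inhibitors or helpers was called by the F-test.

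Genes that act on Pomc transcription or its receptors gave scattered calls. Of 18, 15 were measured (Prdm12, Foxo1 and Lepr were not kept), and 0 passed the F-test, against 12.1% of all genes. By limma 2 of the 15 were called in BNS, 1 in BYS, 2 in BYA and 2 in BYP. Over all genes 15.2%, 13.9%, 19.4% and 15.5% were called in the same comparisons, so the list did not stand out. Mc4r, a receptor for the melanocortins, was called higher than SNS in BYS (0.54), BYA (0.50) and BYP (0.52), but was above background in only 2 of 4 SNS and 3 of 4 BYA samples. These calls were lost in 4, 2 and 6 of 20 removals of a single sample. Nr3c1, the glucocorticoid receptor, was called higher in BNS (0.34), but was above background in only 3 of 4 SNS samples. That call was lost in 11 of 20 removals, and on processed signals at the 75th percentile the difference was -0.01. Creb1, which binds cAMP response elements, was lower in BNS (-0.59), lost in 7 of 20 removals. The immediate early gene Nr4a1 was higher in BYA (0.82), lost in 3, and Stat3, which acts downstream of leptin, was higher in BYP (0.98), lost in 4.

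Among the betamethasone conditions 0 of the genes in these 5 lists were called by limma, where 0% to 0.0878% of all genes were, so the lists did not stand out. The values below are the greatest of each list. After spasms (BYS minus BNS) they were 0.47 for Pcsk5 and -0.24 for Qpct among enzymes, 0.35 for Pcsk1n, the inhibitor of convertase 1/3, and -0.16 for Tmed10 among helpers, and 0.54 for Slc18a2 and 0.51 for Hid1 in granule release. Scg3, a granin of granule membranes, differed by 1.503 in that comparison (SE 0.483, limma unadjusted p = 0.00592, adjusted p = 1) and Chgb by -0.41, and of the regulators of Pomc Creb1 differed by 0.32 and Stat3 by 0.30. The difference in Scg3 was the widest of the whole set of lists in a comparison without SNS.

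With ACTH (BYA minus BYS) the greatest differences were -0.22 for Qpct and 0.19 for Furin, -0.40 for Tmed2 and -0.19 for Atp6ap2, -0.36 for Chga and 0.26 for Chgb, and -0.55 for Rab3a and -0.47 for Cadps2. Among regulators of Pomc they were 0.52 for Nr4a1 (SE 0.254), which acts in the pituitary response to corticotropin-releasing hormone, and 0.29 for Tbx3. With PMX53 (BYP minus BYS) they were 0.26 for Furin and -0.23 for Ctsl, -0.52 for Pcsk1n and -0.20 for Scg5, 0.32 for Chgb and 0.26 for Vgf, -0.79 for Slc18a2 and -0.65 for Rab3a, and 0.54 for Stat3 and -0.41 for Insr. None of these passed the test.

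Likeness to each gene was measured by Pearson's r of dye-adjusted log2 levels over the 20 samples, among 16298 genes, as a description that includes the differences between conditions and any error the samples share. For Pomc the closest were Noxa1 (0.865), Crym (0.835), Rln1 (0.824), Fndc3c1 (0.810) and Ccdc80 (0.807). Under median scaling r with Pomc was 0.627 for Noxa1 and Fndc3c1 and 0.686 for Rln1, but 0.887 for Crym and 0.869 for Ccdc80. For Cartpt they were Kcna2 (0.795), LOC100910827 (0.773), Slc12a4 (0.771), Esrra (0.765) and Rfesd (0.743). With channels set to 1 common median, r with Cartpt was 0.148 for Kcna2, -0.133 for LOC100910827 and 0 for Rfesd, but 0.922 for Slc12a4 and 0.928 for Esrra. Pcsk1 was most like Zfp655 (0.809), Gspt2 (0.797) and Atp6v0e1 (0.796), and Pcsk2 most like Actl6b (0.907), Mgrn1 (0.880) and Elavl3 (0.871), of which Actl6b and Elavl3 are genes of neurons. Cpe, over 19 samples, was most like Scyl2 (0.944), Marchf5 (0.943) and Arpc2 (0.942), and among the genes most like Pam were Exoc8 (0.880) and Nfix (0.866).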

How the data were processed

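RNA of 20 samples (20 channels on 11 two-colour Agilent arrays) was used. Per the file headers, Feature Extraction 11.5.1.1 gave mean signal and background intensity per spot, with flags for spots well above background, saturated or outlying, whereas the submitters' processing notes name 10.7.3.1. The authors deposited these intensity values beside processed signals, background-subtracted and dye-normalized by the software, which served as an alternative. In these files, 82 columns of another series were not used. Signals were corrected by normexp (offset 50), quantile normalized over the 20 channels and log2 transformed in R 4.3.3 with limma 3.58.1. Outlier spots (1.18% of values) were left out, spots and then probes were averaged to 1 value a gene, and dim probes were removed: those for which no condition had a share of 0.5 or more of the spots well above background in each of its 4 samples. Differences were fitted over all samples with dye as a covariate and array as a random block (correlation 0.365), so that they can depart slightly from differences of the printed means. Calls had a Benjamini-Hochberg adjusted p under 0.05 over all genes. The methods' unequal variance test, other scalings, signal columns, filters and blocks, and leaving out each sample, were run as alternatives. The number of arrays limits the precision. The fit was tested on simulated data. The members and lists were chosen with earlier results of these data known. Named are the 6 genes, genes of the lists called in a comparison, and the genes most like each member by correlation (5 for each precursor and 3 for each enzyme, of which some are not reported here). Where a list held no call among the betamethasone conditions, the 2 greatest differences with spasms, ACTH and PMX53 are given as values.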

Additional observations from a re-analysis of the deposited data

How the results depend on the processing

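Cpe was called by the F-test with the settings given in the report, and 0 of the 6 genes were called by it with channels set to 1 common median, with scaling on neuronal genes, or on processed signals with quantile normalization or 75th percentile scaling. In these 4 settings 0 were also called in BNS, BYS, BYA and BYP against SNS, and in BYS also when only the 8 samples compared entered the fit. Without the array block 2 genes were called by the F-test, 2 in BNS (Cpe and Pam) and 2 in BYS. Of 17083 genes in all, 4882 were then called in BNS and 4634 in BYS, against 2595 and 2377 with the block. With the slide as the block (correlation -0.128) 3 were called by the F-test, 4 in BNS, 2 in BYS and 2 in BYP. No slide held more than 1 condition, so this block cannot take slide out of the differences, and its counts do not strengthen the calls. The methods' t-test at its own threshold, an unadjusted p under 0.05, called 2 in BNS, 2 in BYS and 1 between BYA and BNS (Pcsk2). The cause was not tested. Leaving out 1 sample gave 1 to 2 calls in BNS, BYS and BYA against SNS and 0 to 1 by the F-test. Over all genes, calls in BNS minus SNS ran from 15 (median scaling) to 8157 across settings and by the F-test from 8 to 10513. The counts of the 6 genes under each setting are therefore no result about these genes in particular. Of called genes in BNS minus SNS 65.1% were higher, against 46.7% with median scaling and 75.2% with neuronal scaling, and for BYA minus SNS 60.1% against 93.9% and 10% respectively. The median difference over all genes in BNS minus SNS was -0.138 with median scaling against -0.044, and in BYA minus SNS -0.368 with neuronal scaling against -0.037.

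Some differences turned sign, and among the 6 genes none of these was called. With median scaling, which also drops the quantile normalization, they were Cartpt 0.411 (BYS minus BNS) and -0.372 (BYP minus BYS), Pomc 0.239 and -0.478 in the same comparisons, Pam -0.041 (BYA minus BYS), Pcsk1 -0.282 (BYP minus BYS), Pcsk2 -0.007 (BYP minus SNS), Atp6v0a1 -0.052 (BYP minus SNS) and Pcsk1 minus Pcsk2 0.015 (BNS minus SNS). With neuronal scaling they were, in BYA minus BYS, Cpe -0.076, Pam -0.033 and Pomc -0.035, with Cpe 0.02 in BYP minus BYS and -0.16 in BYS minus BNS, and Atp6v0a1 -0.02 in BYA minus SNS. On processed signals with quantile normalization they were Cartpt 0.026, Pcsk1 -0.108, Pcsk2 -0.055 and Pomc minus Cartpt -0.084 in BNS minus SNS, Cpe -0.059 in BYA minus BYS and 0.028 in BYP minus BYS, Pcsk1 -0.062 in BYP minus BYS, Pcsk2 -0.108 in BYP minus SNS and Atp6v0a1 -0.058 in BYA minus SNS. At the 75th percentile they were Pcsk1 -0.069, Pcsk2 -0.021 and Nr3c1 -0.013 in BNS minus SNS, Cpe 0.18 and Pcsk1 -0.087 in BYP minus BYS, Cpe -0.022 in BYS minus BNS and Pcsk2 -0.077 in BYP minus SNS. On the 9 arrays with both channels, by loess and Aquantile, they were Cpe 0.038 and Pcsk1 -0.051 in BYP minus BYS and Cpe -0.013 in BYS minus BNS. With the slide as the block Cpe was -0.005 in BYA minus BYS.

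Leaving out 1 sample at a time, the differences whose sign turned ran from -0.125 to 0.066 for Cartpt (BYS minus BNS), -0.184 to 0.185, -0.208 to 0.161 and -0.152 to 0.217 for Cpe (BYA minus BYS, BYP minus BYS, BYS minus BNS), -0.142 to 0.252 and -0.387 to 0.007 for Pam (BYA and BYP minus BYS), -0.09 to 0.193 for Pcsk1 (BYP minus BYS), -0.028 to 0.19 for Pcsk2 (BYA minus BYS), and -0.035 to 0.284 and -0.217 to 0.269 for Pomc (BYA and BYP minus BYS). For Pomc minus Cartpt they ran from -0.267 to 0.299 (BNS minus SNS) and -0.371 to 0.047 (BYP minus BYS), and for Pcsk1 minus Pcsk2 from -0.157 to 0.115 (BNS minus SNS). Replicate numbers did not pair the samples: samples with the same number had a mean correlation of 0.0031 over 40 pairs, 8 of them over 0.1. With the replicate block, Cpe in BNS minus SNS was 1.02 (limma adjusted p = 0.0175) and 1 gene was called by the F-test. Of the alternatives for the 6 genes other than leaving out a sample, 451 kept direction and call, 21 lost the call, 9 gained it and 29 turned sign. For the named genes of the lists, 500 kept direction and call, 163 lost the call and 4 turned sign, and leaving out 1 sample lost the call in 77 of the refits and kept it in 723.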
